A study of Rattus norvegicus with 6 samples.

Results

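The 40 genes described here are those of protein folding stress: 16 genes of folding and degradation in the endoplasmic reticulum (ER), 4 genes of the unfolded protein response (UPR) that signal from the ER (Xbp1 and the sensor genes Ern1, Atf6 and Eif2ak3), the transcription factor gene Atf4 with 11 genes it controls or that act beside it, and 8 heat shock genes. They were taken by gene name from the array's annotation. All 40 were among the 19591 genes tested, and the probe that stands for each was well above background on all 6 arrays. They have 60 probes in all, of which 1, a second probe of Ern1, was too dim to be tested. No probe of theirs was saturated (0 arrays).

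Misfolded protein in the ER is sensed by PERK (encoded by Eif2ak3), IRE1 (Ern1) and ATF6. IRE1 splices Xbp1 mRNA, and XBP1 and ATF6 switch on ER chaperone genes. PERK slows translation while it favours translation of ATF4, which switches on genes of amino acid synthesis and of stress adaptation, and other kinases can start the same integrated stress response without any ER stress. The cytosolic heat shock response runs through the factor HSF1 and a separate set of chaperones. Cells that secrete much collagen, such as bone-forming stromal cells, carry a heavy folding load, and ATF4 is known in mice as a factor needed for bone formation.

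Rat bone marrow stromal cells from tibia marrow were kept for 7 days on titanium whose surface carried a tantalum modification (Ta) or on simple titanium without it (Ti), with 3 arrays for each surface. The series describes 3 independent experiments in each group. Total RNA was labelled with Cy3 and hybridised to 1-colour Agilent arrays, and the comparison asks which of these genes differ between the surfaces. Values are log2 processed signals scaled to the same 75th percentile on every array, and differences are Ta minus Ti. A probe's signal depends on its sequence, so levels are compared between arrays and not between genes.

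Between 62.7% and 65.9% of spots were well above background on an array. The lowest share was on Ti replicate 2, the single array that the scanner software's quality report marked for evaluation. All 14 stromal markers examined were tested, and their summed signal was 331100 to 356100 on Ta and 346800 to 358600 on Ti. Such a sum is carried by its brightest genes. Of these 14, 2 rose (Cxcl12 by 1.06 and Thy1 by 0.67 on the log2 scale) and 0 fell. In the same test 3 were higher and 4 lower at an unadjusted p under 0.05, against 16.8% and 13.2% of all genes. Summed signals of markers of other marrow cells did not overlap between the surfaces. The summed signal of 16 macrophage markers was 69880 to 180700 on Ta and 198200 to 256900 on Ti, with Ta replicate 1 closest to Ti. Of these 16, 1 fell (Cd5l) and 0 rose. Every Ta array lay below every Ti array for 8, against 16.4% of all genes, and 7 overlapped. Cd14 lay the other way (0.34, adjusted p = 0.154), with every Ta array above every Ti array. The sum for the 6 tested mast cell markers of 9 was 800.1 to 888.6 on Ta and 1301 to 2144 on Ti. Of these 6, 4 fell, Fcer1a overlapped (-0.25), and Hdc lay the other way (0.73, adjusted p = 0.0564) with every Ta array above every Ti array. On the Ta arrays Cma1, 1 of the 4, was never well above background. The sum for the 3 tested neutrophil markers of 7 was 262.2 to 617.3 on Ta and 82.18 to 135.2 on Ti. In RNA from mixed cells, fewer cells of a type and less RNA per cell cannot be told apart. Their part in the differences below was not tested.

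Of the 40 genes, 3 fell on Ta, 0 rose and 37 did not pass an adjusted p of 0.05 in limma. All 3 belong to the ATF4 group: Atf5, Psat1 and Asns. Of all genes tested, 4.15% passed, 2.67% higher and 1.48% lower (523 and 290 genes, or 417 and 361 with median scaling). At an unadjusted p under 0.05, 9 of the 40 were higher and 9 lower on Ta, against 16.8% and 13.2% of all genes. Every Ta array lay above every Ti array for 11 of the 40 and below for 9, against 19.5% and 16.4% of all genes, and the groups overlapped for 20. The directions divided by role. In the ER folding group 8 of 16 genes had every Ta array above every Ti array and 0 had every one below. In the ATF4 group the counts were 0 of 12 above and 8 below. In the heat shock group they were 3 of 8 above and 0 below, and among the sensors and Xbp1 0 of 4 above and 1 below. The median log2 difference was 0.13 for ER folding, -0.14 for the sensors and Xbp1, -0.34 for the ATF4 group and 0.20 for heat shock, against 0.03 over all genes tested.

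The calls rest on few arrays. When replicate 2 or 3 of Ta was left out, limma called 0 of the 40 genes and 0 of all genes. These fits had 11 and 13 of the 40, and 3813 and 3902 of all genes, at an unadjusted p under 0.05. The same counts of 0 came from leaving out replicate 1 or 3 of Ti. At that unadjusted threshold they had 14 and 13 of the 40, and 4467 and 3814 of all genes. It called 12 of the 40 (4 higher, 8 lower) and 3212 genes in all without Ta replicate 1, and 6 (4 higher, 2 lower) and 1563 in all without Ti replicate 2. In the latter fit the call of Asns was lost (adjusted p = 0.0545). By position on the slide, 1 row held all Ta arrays with Ti replicate 1, and another held the remaining Ti arrays. With slide row as a block limma again called 0 of the 40 and 0 of all genes (13 and 3829 at an unadjusted p under 0.05). In that fit the difference comes from the row with both surfaces, so it rests on a single Ti array, and the other row holds no Ta array.

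**Figure D1:**
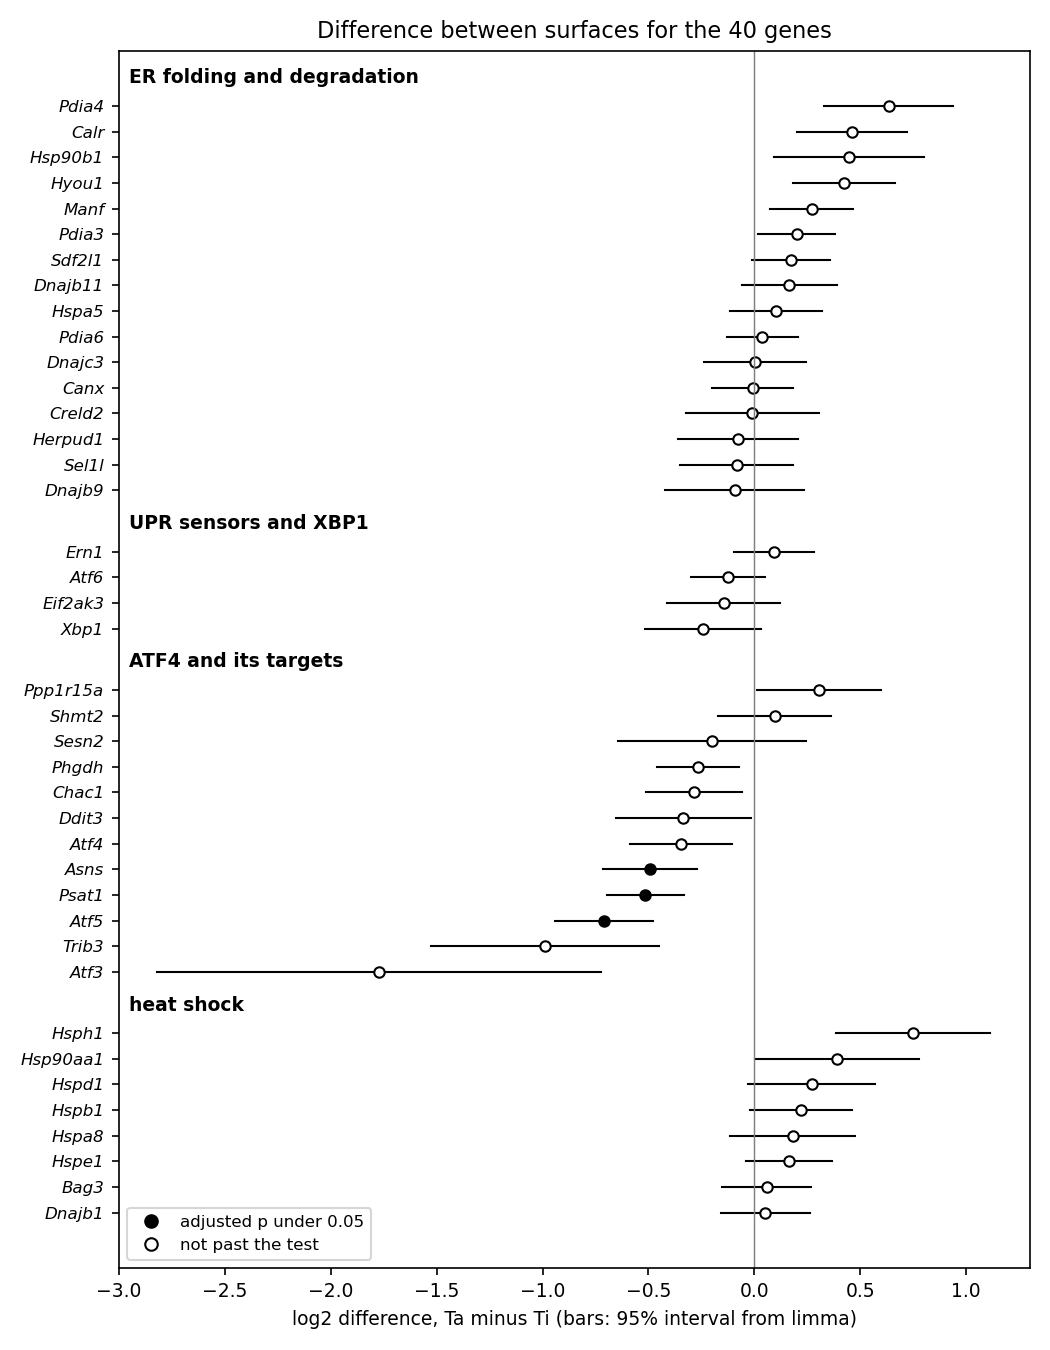
Log2 difference between surfaces (x axis, Ta minus Ti) for each of the 40 genes, grouped by role and sorted within it; bars are limma's 95% intervals, unadjusted for the number of genes, and filled points passed an adjusted p of 0.05 over all genes. The 3 filled points, Atf5, Psat1 and Asns, lie below 0 in the ATF4 group, and the genes of ER folding and heat shock lie mostly at or above 0.

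The probes behind the 3 genes that fell are shown because each gene was read by a pair of 60-base probes that did not always give the same direction. Coordinates are those of the array annotation on rat build rn4, all on the minus strand, and no gene model of that build was used here. The first line of each pair is the brighter probe, which stands for the gene.
Atf5, chr1:95284097-95284156: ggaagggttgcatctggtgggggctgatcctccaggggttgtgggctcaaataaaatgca
Atf5, chr1:95284512-95284571: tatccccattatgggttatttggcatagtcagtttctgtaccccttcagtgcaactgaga
Psat1, chr1:219268481-219268540: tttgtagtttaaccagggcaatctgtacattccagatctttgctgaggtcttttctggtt
Psat1, chr1:219286277-219290212: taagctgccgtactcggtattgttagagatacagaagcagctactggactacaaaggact
Asns, chr4:32759136-32759195: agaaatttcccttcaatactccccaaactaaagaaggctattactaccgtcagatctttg
Asns, chr4:32758667-32758726: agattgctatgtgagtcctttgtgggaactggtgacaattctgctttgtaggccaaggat
The second Psat1 probe is the only one of the 6 whose coordinates spread over more than its own length, 3936 bases, and by the file it starts at base 61 of the transcript, against base 1931 for the first.

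Atf5 encodes a transcription factor close to ATF4 whose translation is likewise favoured under stress. Its log2 signal was 13.73, 13.62 and 13.58 on the Ta arrays, against 14.40, 14.44 and 14.22 on the Ti arrays. The groups did not overlap, and Atf5 fell by 0.71 (log2, SE 0.10, adjusted p = 0.0396, a ratio of 0.612). Its second probe gave a difference of -0.96 (SE 0.10).

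Psat1 encodes phosphoserine aminotransferase, an enzyme of serine synthesis. Its signal was 12.24, 12.29 and 12.23 on Ta, against 12.77, 12.82 and 12.71 on Ti. The arrays of each group lay close together, and Psat1 fell by 0.51 (log2, SE 0.08, adjusted p = 0.0406, a ratio of 0.70). The second probe differed by 0.20 (SE 0.15) in the opposite direction, at a signal of 5.06, 5.56 and 5.34 on Ta and 4.97, 5.28 and 5.10 on Ti. With the mean of both probes the difference was -0.16 and the call was lost (adjusted p = 0.363), so the fall of Psat1 rests on 1 probe.

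Asns encodes asparagine synthetase, a classic ATF4 target of amino acid shortage. Its signal was 11.91, 11.88 and 11.67 on Ta, against 12.30, 12.32 and 12.31 on Ti. The 3 Ti arrays were nearly equal and all above the Ta arrays, and Asns fell by 0.49 (log2, SE 0.09, adjusted p = 0.047, a ratio of 0.711). The second probe gave -0.26 (SE 0.12), and the mean of both gave -0.38 (adjusted p = 0.0793). Without Ti replicate 2, the array marked for evaluation, the difference was -0.49 and did not pass (adjusted p = 0.0545).

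The largest differences of the ATF4 group were in genes that did not pass. Atf3, an early stress transcription factor induced through ATF4 and through other routes, had 11.80, 10.66 and 10.17 on Ta, against 12.69, 12.25 and 13.02 on Ti. The Ta arrays lay below every Ti array but were themselves spread over more than 1 log2 unit (SD 0.83), with Ta replicate 1 nearest to Ti. The difference was -1.77 ± 0.43 (SE, adjusted p = 0.0671), and without Ta replicate 1 it was -2.23 (adjusted p = 0.012). Atf3 did not pass when any other single array was left out (adjusted p from 0.0685 to 0.208). Trib3, a pseudokinase that restrains ATF4 and CHOP, had 9.17, 8.74 and 8.32 on Ta, against 9.76, 9.88 and 9.55 on Ti. The groups did not overlap and Ta replicate 1 was again nearest to Ti, for a difference of -0.99 ± 0.22 (adjusted p = 0.0604). It passed without Ta replicate 1 (-1.20, adjusted p = 0.0161) and when probes had to be well above background on all 6 arrays (adjusted p = 0.0463). Trib3 did not pass when any other single array was left out (adjusted p from 0.0849 to 0.191).

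Atf4 itself had 14.23, 14.03 and 14.00 on Ta, against 14.50, 14.33 and 14.46 on Ti. Every Ta array lay below every Ti array, and the difference of -0.35 ± 0.10 did not pass (adjusted p = 0.0853). It passed without Ta replicate 1 (-0.42, adjusted p = 0.0398). Atf4 did not pass when any other single array was left out (adjusted p from 0.0747 to 0.252). It also passed with normexp background correction and with a trended robust variance (adjusted p = 0.0457 and 0.0422), fits that called 2654 and 2094 genes in all. The array reads mRNA, while ATF4 protein is set mainly by translation. Ddit3, which encodes the death-promoting factor CHOP, had 13.12, 12.73 and 12.73 on Ta, against 13.19, 13.28 and 13.11 on Ti. Ta replicate 1 lay within the range of the Ti arrays, and the difference was -0.33 ± 0.13 (adjusted p = 0.15). Ddit3 passed without Ta replicate 1 (-0.46, adjusted p = 0.0315). It did not pass when any other single array was left out (adjusted p from 0.239 to 0.373).

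Phgdh, the first enzyme of serine synthesis, averaged 12.84 ± 0.05 on Ta and 13.11 ± 0.07 on Ti (log2, SD, n = 3 each), a difference of -0.27 ± 0.08 (SE, adjusted p = 0.093). Its second probe gave -0.40 (SE 0.09). Chac1, which breaks down glutathione, averaged 8.20 ± 0.13 on Ta and 8.49 ± 0.04 on Ti, a difference of -0.29 ± 0.09 (adjusted p = 0.106). Both genes had every Ta array below every Ti array. Sesn2, a stress-induced brake on mTORC1, averaged 7.14 ± 0.13 on Ta and 7.34 ± 0.34 on Ti, and the groups overlapped (difference -0.20, adjusted p = 0.499).

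The other two genes of the group lay the other way. Ppp1r15a, which encodes the phosphatase subunit GADD34 that ends the translation block, averaged 12.15 ± 0.14 on Ta and 11.85 ± 0.16 on Ti. The groups overlapped, and the difference was 0.30 ± 0.12 (adjusted p = 0.155). Shmt2, a mitochondrial enzyme of serine and folate metabolism, averaged 11.39 ± 0.12 on Ta and 11.30 ± 0.14 on Ti (difference 0.10, adjusted p = 0.598).

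**Figure D2:**
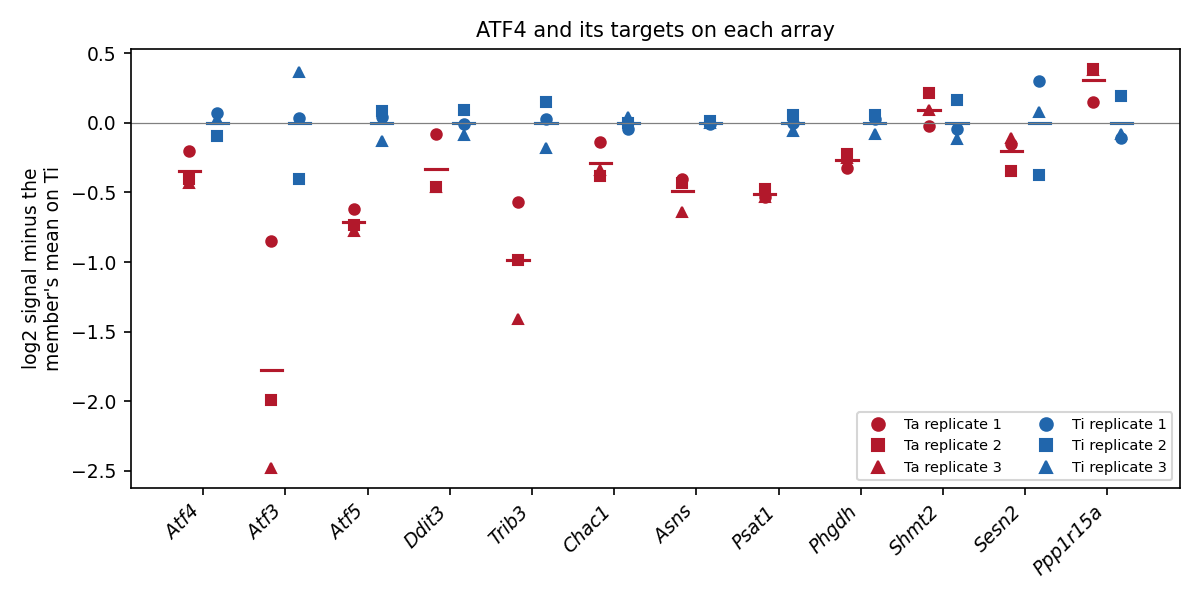
Log2 signal of Atf4 and the 11 other genes of its group on each array, minus the gene's mean over the 3 Ti arrays (y axis); points are arrays, with Ta left of Ti for each gene, and lines are group means. Atf3 and Trib3 show the widest spread among Ta arrays, with Ta replicate 1 nearest to Ti, and Psat1 the tightest.

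Other genes of the integrated stress response were taken from a list of 42, of which 41 were tested. Of these, 2 fell, 0 rose and 39 did not pass, against 1.48% lower and 2.67% higher of all genes. At an unadjusted p under 0.05, 2 were higher and 18 lower, against 16.8% and 13.2% of all genes. Every Ta array lay below every Ti array for 20 of the 41 and above for 1, against 16.4% and 19.5% of all genes, and the list's median was -0.21, against 0.03 over all genes tested. Nupr1, a stress-induced chromatin protein, had 11.97, 11.62 and 11.86 on Ta, against 12.61, 12.59 and 12.51 on Ti, and fell by 0.75 (log2, SE 0.11, adjusted p = 0.0408). Pycr1, an enzyme of proline synthesis, had 11.02, 10.89 and 10.75 on Ta, against 11.53, 11.48 and 11.45 on Ti, and fell by 0.60 (log2, SE 0.10, adjusted p = 0.0431). In both genes the groups were clearly apart on every array. Cebpb, the single gene of the list with every Ta array above every Ti array, differed by 0.50 ± 0.13 (adjusted p = 0.0724). It encodes a partner of ATF4 that is also a factor of inflammatory gene expression, and it is named after its value was seen. The widest difference of the list, 1.21 for the cystine transporter gene Slc7a11, did not pass (adjusted p = 0.139), and it too is named after its value was seen.

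None of the 16 ER folding genes passed the test in limma (0). Of the 16, 6 were higher and 0 lower at an unadjusted p under 0.05, against 16.8% and 13.2% of all genes. The largest differences were in genes of lumenal folding. Pdia4, a protein disulfide isomerase, had 10.30, 10.41 and 10.44 on Ta, against 9.63, 9.996 and 9.62 on Ti. Every Ta array was higher, and the difference of 0.64 ± 0.13 missed the threshold narrowly (adjusted p = 0.0501). It passed with the percentile taken over detected probes (0.64, adjusted p = 0.0477), without Ta replicate 1 (0.68, adjusted p = 0.0376) and without Ti replicate 2 (0.76, adjusted p = 0.0299). Pdia4 did not pass when any other single array was left out (adjusted p from 0.147 to 0.181). Calr, which encodes the lectin chaperone calreticulin, had 14.09, 14.25 and 14.11 on Ta, against 13.54, 13.85 and 13.69 on Ti, without overlap (difference 0.46 ± 0.11, adjusted p = 0.0634). Hsp90b1, which encodes the ER HSP90 protein GRP94, had 12.72, 12.80 and 12.73 on Ta, against 12.50, 11.99 and 12.42 on Ti. The Ta arrays lay close together, and Ti replicate 2 lay below the other Ti arrays (difference 0.45 ± 0.15, adjusted p = 0.106). The difference was 0.29 without Ti replicate 2 and 0.25 with slide row as a block (adjusted p = 0.0828 and 0.477).

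Hspa5 encodes BiP, the main ER chaperone and the usual reporter of the UPR. It had 14.85, 14.74 and 14.73 on Ta, against 14.68, 14.56 and 14.77 on Ti. The groups overlapped, and the difference of 0.10 ± 0.09 had a 95% interval from -0.12 to 0.32 (adjusted p = 0.481).

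Among the other members of this group, Hyou1, a nucleotide exchange factor for BiP, averaged 13.01 ± 0.13 on Ta and 12.58 ± 0.09 on Ti (difference 0.42, adjusted p = 0.0646). Manf, a secreted UPR product, averaged 14.60 ± 0.07 on Ta and 14.33 ± 0.06 on Ti (0.27, adjusted p = 0.0912), but its second probe gave -0.01. The disulfide isomerase gene Pdia3 averaged 11.70 ± 0.06 on Ta and 11.50 ± 0.01 on Ti (0.20, adjusted p = 0.138), with a second probe at 0.27. Sdf2l1, a partner of ER chaperones, averaged 12.31 ± 0.05 on Ta and 12.14 ± 0.05 on Ti (0.17, adjusted p = 0.187). In these 4 genes and in Pdia6, a further disulfide isomerase with a difference of 0.04 (-0.02 with quantile scaling), every Ta array lay above every Ti array.

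The remaining 7 members of the group overlapped between surfaces. These were the BiP cochaperones Dnajb11 (0.17 ± 0.09), Dnajc3 (0.003 ± 0.10) and Dnajb9 (-0.09 ± 0.14), the membrane chaperone Canx (-0.01 ± 0.08), the secreted UPR product Creld2 (-0.01 ± 0.13), and Herpud1 (-0.08 ± 0.12) and Sel1l (-0.08 ± 0.11) of ER-associated degradation. The adjusted p-values ran from 0.282 for Dnajb11 to 0.987 for Dnajc3. With quantile scaling Dnajc3 turned to -0.002 and Creld2 to 0.002.

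A known promoter sign of the UPR is the ER stress response element (CCAAT, any 9 bases, then CCACG). Of the 7 promoters of these genes that hold it, 5 are shown, chosen after their values were seen, because genes with and without a higher signal on Ta share it. RefSeq promoters of build GRCr8 were found for 33 of the 40 genes, and the 250 bases before the start were searched on both strands. The element was present in 6 of 13 ER folding promoters, in that of Xbp1, and in 21 of 27457 promoters in all (0.076%). Capitals mark it; the Calr promoter holds it on the opposite strand and Hsp90b1 once on each.
Hspa5, chr3:38452916-38453015, plus strand: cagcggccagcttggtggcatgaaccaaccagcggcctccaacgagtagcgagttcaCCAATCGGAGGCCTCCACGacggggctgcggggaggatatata
Hsp90b1, chr7:23012337-23012479, minus strand: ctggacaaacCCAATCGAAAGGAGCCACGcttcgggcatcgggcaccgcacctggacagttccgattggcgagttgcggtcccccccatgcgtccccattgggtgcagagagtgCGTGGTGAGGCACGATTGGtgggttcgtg
Calr, chr19:40213117-40213216, plus strand: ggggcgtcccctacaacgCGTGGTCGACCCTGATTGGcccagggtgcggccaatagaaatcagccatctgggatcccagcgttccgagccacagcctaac
Canx, chr10:35158008-35158107, minus strand: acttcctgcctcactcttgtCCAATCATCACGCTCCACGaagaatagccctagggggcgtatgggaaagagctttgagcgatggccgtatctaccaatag
Xbp1, chr14:84604517-84604616, plus strand: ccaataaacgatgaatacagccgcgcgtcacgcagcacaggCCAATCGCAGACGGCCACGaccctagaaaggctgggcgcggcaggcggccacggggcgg
Of the 7 genes with the element, 4 had a difference above 0 and 3 below, with a median of 0.003. Calr and Hsp90b1 had every Ta array above every Ti array, and Hspa5, Canx, Dnajc3, Creld2 and Xbp1 overlapped.

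The sensors and Xbp1 did not pass the test (0 of 4). At an unadjusted p under 0.05, 0 were higher and 0 lower, against 16.8% and 13.2% of all genes. Xbp1 had 12.30, 12.11 and 12.06 on Ta, against 12.54, 12.26 and 12.40 on Ti. Ta replicate 1 lay within the Ti range, and the difference was -0.24 ± 0.11 (adjusted p = 0.207). Its probe gives 1 value for the gene and does not tell spliced from unspliced mRNA. Eif2ak3 had 9.63, 9.36 and 9.33 on Ta, against 9.61, 9.50 and 9.65 on Ti, with overlap (-0.14 ± 0.11, adjusted p = 0.418). Atf6 had 11.39, 11.46 and 11.40 on Ta, against 11.54, 11.56 and 11.53 on Ti. These groups did not overlap although the difference was only -0.13 ± 0.07 (adjusted p = 0.289), and 2 further probes of Atf6 gave -0.15 and 0.29. Ern1 averaged 9.02 ± 0.04 on Ta and 8.93 ± 0.07 on Ti (0.09 ± 0.08, adjusted p = 0.452).

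Of 36 other genes of ER protein quality, 1 rose, 1 fell and 34 did not pass, with a list median of -0.02. Derl3, which encodes a derlin of ER-associated degradation, had 8.63, 9.07 and 9.11 on Ta, against 7.84, 8.002 and 7.90 on Ti, and rose by 1.02 ± 0.15 (log2, SE, adjusted p = 0.0396). Pdia5, a disulfide isomerase, had 10.08, 9.76 and 9.59 on Ta, against 10.48, 10.55 and 10.48 on Ti, and fell by 0.69 (log2, SE 0.14, adjusted p = 0.0494). The isomerase genes lay on both sides, with Pdia5 lower and Pdia4 higher on every Ta array. At an unadjusted p under 0.05, 5 genes of this list were higher and 8 lower, against 16.8% and 13.2% of all genes.

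**Figure D3:**
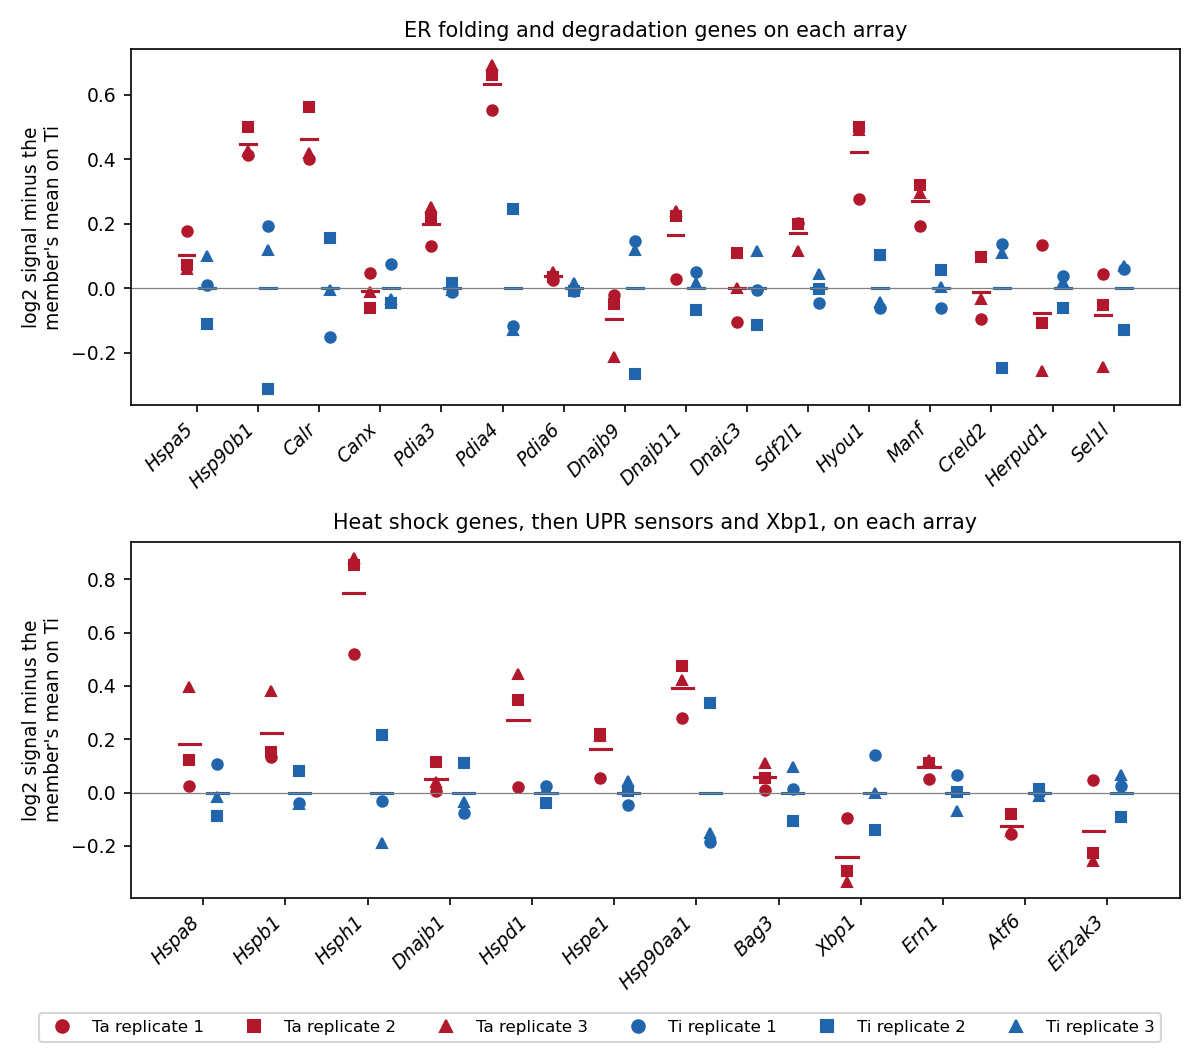
Log2 signal on each array minus the gene's mean over the 3 Ti arrays (y axis) for the 16 ER folding genes (upper panel) and for the 8 heat shock genes and 4 genes of UPR signalling (lower panel); points are arrays, with Ta left of Ti, and lines are group means. Pdia4, Calr and Hyou1 lie above every Ti array, Hspa5 and Canx overlap, and Ti replicate 2 stands apart from the other Ti arrays in Hsp90b1 and Hsp90aa1.

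None of the 8 heat shock genes passed the test in limma (0). Of the 8, 2 were higher and 0 lower at an unadjusted p under 0.05, against 16.8% and 13.2% of all genes. All 8 differences were above 0, also with quantile and median scaling, against 10545 of the 19591 genes tested. With array weights Bag3 turned to -0.005. Hsph1, an HSP110 exchange factor for cytosolic HSP70, had 8.16, 8.49 and 8.52 on Ta, against 7.61, 7.86 and 7.45 on Ti. The groups did not overlap, and the difference of 0.75 ± 0.15 missed the threshold (adjusted p = 0.0511). It passed with the percentile taken over detected probes (0.76, adjusted p = 0.0485), without Ta replicate 1 (0.87, adjusted p = 0.0203) and without Ti replicate 2 (0.86, adjusted p = 0.041). Hsph1 did not pass when any other single array was left out (adjusted p from 0.148 to 0.181).

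Hsp90aa1, the inducible cytosolic HSP90 gene, had 14.84, 15.03 and 14.98 on Ta, against 14.37, 14.90 and 14.41 on Ti. Ti replicate 2 lay within the Ta range and the other Ti arrays below it (difference 0.39 ± 0.16, adjusted p = 0.162), and a further probe gave 0.27. Another probe under this name gave 0.60, but the annotation places it on the plus strand and the others on the minus strand. Hspd1, the mitochondrial chaperonin HSP60, had 13.78, 14.11 and 14.20 on Ta, against 13.78, 13.72 and 13.78 on Ti. Ta replicate 1 lay at the level of the Ti arrays while the other Ta arrays were higher (difference 0.27 ± 0.12, adjusted p = 0.202). Hspe1, its cochaperonin HSP10, averaged 14.34 ± 0.09 on Ta and 14.18 ± 0.04 on Ti, without overlap (0.16 ± 0.08, adjusted p = 0.249).

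Hspa8, the constitutive cytosolic HSP70 gene, had 16.33, 16.42 and 16.70 on Ta, against 16.41, 16.21 and 16.29 on Ti. The groups overlapped (difference 0.18 ± 0.12, adjusted p = 0.364), and its 4 probes ran from -0.15 to 0.32. Hspb1, the small heat shock protein HSP27, averaged 12.73 ± 0.14 on Ta and 12.51 ± 0.07 on Ti (0.22 ± 0.10, adjusted p = 0.195). The stress-induced genes Dnajb1, a cochaperone of HSP70, and Bag3, a partner of HSP70 in selective autophagy, both overlapped and differed by 0.05 ± 0.09 and 0.06 ± 0.09 (adjusted p = 0.723 and 0.686). Of 48 tested genes among 50 others of the heat shock and chaperone network, 0 passed in limma, with a median of 0.07. Only 2 were higher and 2 lower at an unadjusted p under 0.05, against 16.8% and 13.2% of all genes. The largest differences were 0.48 ± 0.13 for the HSP90 cochaperone gene Fkbp4 and -0.46 ± 0.21 for the small heat shock gene Hspb8 (adjusted p = 0.073 and 0.206).

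The heat shock element (GAA, TTC and GAA with any 2 bases between neighbours) was found on either strand in the 250 bases before the start of 4 of 7 heat shock genes with a promoter sequence (Hspa8, Hsph1, Hspd1 and Hspe1), and in 164 of 27457 promoters in all (0.597%). Shown are Hsph1, the gene of this group with the largest difference, and the divergent pair Hspd1 and Hspe1, with the element in capitals (GRCr8).
Hsph1, chr12:10427268-10427367, plus strand: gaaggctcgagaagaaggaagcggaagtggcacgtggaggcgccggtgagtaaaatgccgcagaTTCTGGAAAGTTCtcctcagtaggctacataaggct
Hspd1, chr9:64084188-64084287, minus strand: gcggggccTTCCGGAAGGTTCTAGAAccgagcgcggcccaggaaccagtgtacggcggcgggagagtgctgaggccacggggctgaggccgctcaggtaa
Hspe1, chr9:64084220-64084319, plus strand: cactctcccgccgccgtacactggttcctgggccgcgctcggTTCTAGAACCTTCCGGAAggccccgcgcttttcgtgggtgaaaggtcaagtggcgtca
The Hspd1 and Hspe1 stretches overlap on opposite strands, so the capitals in both are the same bases, where 2 copies of the element overlap.

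The C/EBP-ATF response element, searched as TGATGNAA on both strands, was found in 2 of 11 promoters of the ATF4 group (Trib3 and Chac1), in that of Herpud1, and in 899 of 27457 promoters in all (3.27%). Its capitals below read on the opposite strand. The 3 genes that fell do not hold these letters in this window.
Trib3, chr3:161275534-161275633, minus strand: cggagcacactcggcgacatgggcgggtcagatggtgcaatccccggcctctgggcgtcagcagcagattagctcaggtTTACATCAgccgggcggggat
Chac1, chr3:126795917-126796016, plus strand: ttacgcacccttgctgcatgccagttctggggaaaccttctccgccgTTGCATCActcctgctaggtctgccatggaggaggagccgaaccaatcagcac
Binding of a factor to these promoters was not measured.

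Averaged over its 12 genes, each set against its own mean on Ti, the ATF4 group lay at -0.31, -0.49 and -0.58 on Ta replicates 1, 2 and 3, against 0.02, -0.01 and -0.02 on the Ti arrays. The heat shock group lay at 0.13, 0.29 and 0.36 on Ta, against -0.03, 0.07 and -0.04 on Ti. In both groups Ta replicate 1 was nearest to Ti, and the groups did not overlap. The ER folding group lay at 0.15, 0.20 and 0.14 on Ta, against 0.02, -0.05 and 0.03 on Ti, with no such gap between Ta replicates. Ta replicate 1 was the Ta array closest to the Ti mean for 9 of 12 ATF4 group genes, 8 of 8 heat shock genes and 10 of 16 ER folding genes, and for 54.8% of all genes tested. The macrophage markers followed the same order of Ta arrays, at -0.50, -1.41 and -2.24 for replicates 1, 2 and 3, against -0.02, -0.07 and 0.09 on Ti. The 3 neutrophil markers had this order too, at 1.49, 2.31 and 2.48 on Ta, against -0.39, 0.43 and -0.04 on Ti. So did the sensors and Xbp1, at -0.038, -0.122 and -0.153 on Ta, with Ta replicate 1 within the Ti range. The other heat shock and chaperone genes also rose from replicate 1 to 3, at -0.039, 0.04 and 0.104 on Ta. Their Ti arrays lay at 0.019, -0.011 and -0.009, so Ta replicate 1 was below all 3. Ta replicate 1 was closest to the Ti mean for 24 of these 48 genes. The other ER protein quality genes lacked this order, at -0.044, -0.012 and -0.025 on Ta. The other integrated stress response genes did not have it either, at -0.144, -0.129 and -0.195 on Ta. Nor did the mast cell markers, at -1.485, -1.79 and -1.674. The part of macrophage and neutrophil RNA in the differences of the ATF4 and heat shock groups was not tested.

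**Figure D4:**
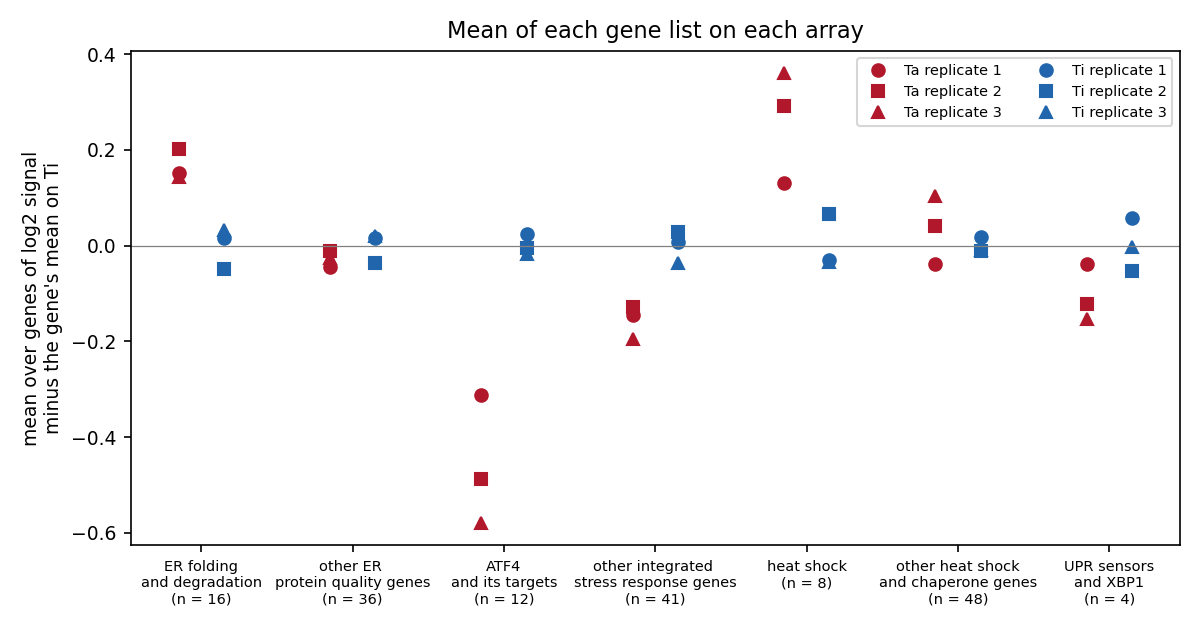
Mean over the genes of each list of the log2 signal minus the gene's mean on Ti (y axis), for the 4 role groups and the 3 lists of other pathway genes; points are arrays, with Ta left of Ti. The ATF4 group and the other integrated stress response genes lie below the Ti arrays on all 3 Ta arrays, ER folding and heat shock above, and the other ER and chaperone lists near 0.

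More than 1 probe was tested for 14 of the 40 genes. All probes of a gene gave the same sign in 9 of them, and 5 had probes of opposite sign. These 5 were Manf, Sel1l, Atf6, Psat1 and Hspa8. In the test of probes, Atf5 was the only gene of the 40 for which more than 1 probe passed, and both of its probes fell. Psat1 and Asns each passed with 1 of their 2 probes. Hsp90aa1 had differences of 0.27 to 0.60, the last from the probe on the opposite strand, and Hspd1 of 0.11 to 0.52, over 3 probes each and all above 0, and Canx had -0.37 for the second probe beside -0.01.

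**Figure D5:**
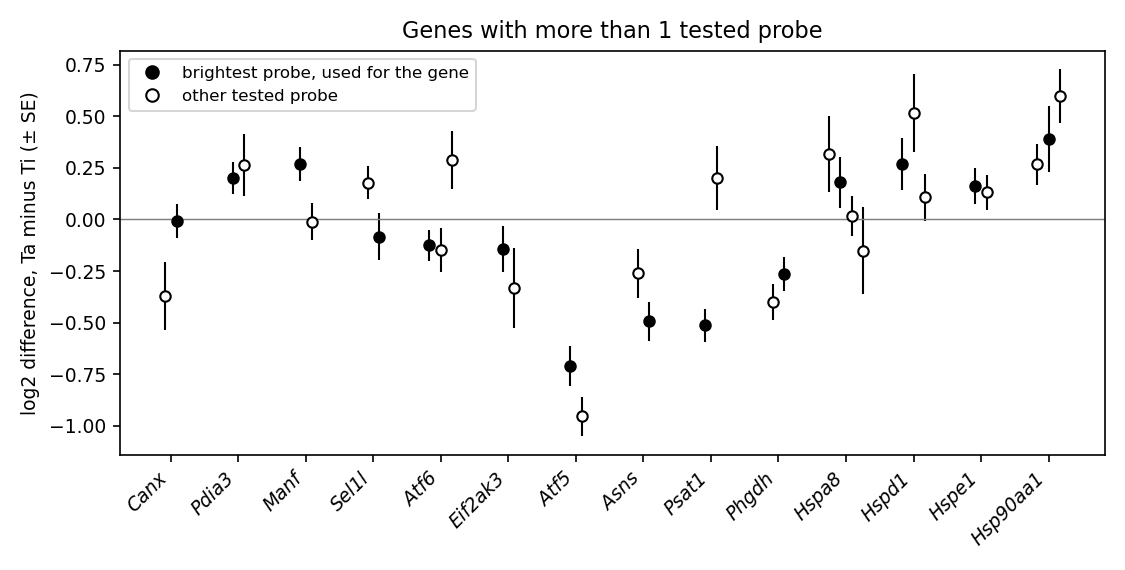
Log2 difference between surfaces (y axis, Ta minus Ti, ± limma's SE) for each tested probe of the 14 genes with more than 1; filled points are the brightest probe, which stands for the gene. Both probes of Atf5 lie below 0, and the probes of Psat1 lie on both sides of 0.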

How the data were processed

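The labels and file headers describe 6 single-colour Agilent rat arrays, 3 for each surface. The values used are the processed signal intensity of each spot, deposited by the authors as Agilent Feature Extraction output (version 12.0, per the submitters' processing notes), which is background-subtracted. The submitters' notes also name limma. The study's own value table holds the same processed signals.

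From these files, control spots and spots marked as outliers were left out, spots of a probe were averaged, and log2 signals were scaled to the 75th percentile of each array. Of 45598 probes, 25774 were kept, each with a value on every array and a signal well above background on 3 or more of the 6. The probe with the brightest signal stood for a gene, which gave 19591 genes. Symbols were updated through RefSeq accessions where possible, and member names were kept as in the files. Ta and Ti were compared with lmFit and eBayes of limma 3.58.1 in R 4.3.3, two-sided, with Benjamini-Hochberg adjustment over all genes and a threshold of 0.05. The number of arrays limits the precision. On simulated data with 19591 genes and 200 changed, 68% of genes changed by 1 log2 unit and 89% of those changed by 2 were recovered, with 9 false among 166 calls.

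The members, roles and lists were chosen with earlier results of these data known. Values on every array were given for members that passed, for the 3 members of each role group with the largest absolute difference, and for Hspa5, Xbp1, Atf4, Ddit3 and Hspa8. From each list of other genes, up to 4 that passed were named, or the 2 with the largest difference where none did. Alternatives covered scaling, background correction, the filter, the variance model, probe choice, blocks and leaving out each array.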

Additional observations from a re-analysis of the deposited data

How the results depend on the processing

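Over 19 alternatives the signs of Atf5, Asns and Psat1 did not change. Limma called 813 genes and 3 of the 40 in the analysis as reported. The counts were 2654 and 12 with normexp, 0 and 0 without a filter, 2094 and 11 with a trended robust variance, and 10155 and 27 with array weights (weights 0.319 to 7.35). Leaving out each array in turn gave 0 to 3212 genes and 0 to 12 of the 40. At an unadjusted p under 0.05 there were 5875 and 18. Of the 40, 5 passed with the percentile over detected probes, beside 829 of all 19591 genes. With probes well above background on all 6 arrays 6 passed, beside 1176 of 17812 genes. With the mean of probes 1 passed, beside 797 of 19591. With each probe tested on its own, 5 probes passed, 4 lower and 1 higher. The lower ones were both probes of Atf5 and 1 each of Psat1 and Asns, and the higher one was that of Pdia4. With slide row as a block 0 genes were called, and the ATF4 group median was -0.45. Leaving out arrays, that median ran from -0.44 to -0.29 and the ER folding median from 0.089 to 0.163.

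The labels number the arrays 1 to 3 in both groups, but same-numbered arrays deviated together with correlations of 0.06, 0.13 and -0.18, and the best match of Ta replicate 1 was Ti replicate 3. The best match of Ta replicate 2 was Ti replicate 2 (0.132), and that of Ta replicate 3 was also Ti replicate 2 (0.117). Deviations within so small a group are not independent, so these values neither show nor exclude pairing by number. The labels do not state whether the experiments were paired. The replicate block gave 8 genes and 0 of the 40 (5091 and 15 at an unadjusted p under 0.05).

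Signs turned only in members that did not pass. With quantile normalization Pdia6 was -0.018, Dnajc3 -0.002 and Creld2 0.002, with median scaling Dnajc3 was -0.032, with the mean of probes Sel1l was 0.047 and Atf6 0.005, and with array weights Bag3 was -0.005. Leaving out each array in turn, Canx ran from -0.037 to 0.029, Dnajc3 from -0.054 to 0.061 and Creld2 from -0.133 to 0.058, and Herpud1 reached 0.013. The causes were not tested.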
